A study of Mus musculus with 12 samples.

Results

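Gastrocnemius muscle injured with bupivacaine was compared with uninjected gastrocnemius over all expressed genes, in 3 injury libraries and 3 naive libraries of the 12 in the series. The gastrocnemius is a calf muscle made mostly of fast-contracting fibres. Every library came from wild-type C57BL/6 mice aged 6 to 7 months. Injury muscle was injected with bupivacaine and not needled, and naive muscle received no injection. Values of 3 saline libraries, injected with saline alone, are given for some genes and lists. Since injury and naive muscle differ in the injection as well as in the drug, the comparison gives their joint effect. The libraries were put into groups by their labels. The labels do not say whether the replicates were separate mice, whether tissue was pooled, or when it was collected after the injection. The p-values therefore measure the spread between these libraries, which may be technical. The remaining 3 libraries, from injured muscle needled 24 hours after bupivacaine, entered the estimate of the spread and are otherwise not described here.

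Bupivacaine is a local anaesthetic that kills muscle fibres when injected into muscle, while many of the stem cells beside the fibres, the satellite cells, survive. In such injuries blood monocytes enter, become macrophages and clear the dead fibres, and connective tissue cells lay down collagen-rich matrix around the gaps. Satellite cells then divide, become myoblasts and fuse into new fibres that first use embryonic forms of the contractile proteins.

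Total gene counts lay between 23212441 and 27155738 in injury libraries and between 19438491 and 24023003 in naive libraries. Levels are given as CPM, the gene's counts scaled to the library's total after edgeR's TMM normalisation. The TMM factors were 1.05, 1.14 and 1.01 in injury libraries and 0.824, 0.781 and 0.912 in naive libraries. A higher factor lowers every CPM of its library, so the size of small decreases in injury muscle depends in part on this scaling. Mitochondrially encoded genes took 8.74% to 11.8% of the counts in injury libraries and 11.6% to 13.5% in naive libraries. On the first principal component of log2 CPM, which held 62.6% of the variance, injury libraries lay between 6.01 and 39.0 and naive libraries between -79.97 and -50.04. The second component set naive replicate 1, at 62.3, off from the other 11 libraries, which ranged over -15.83 to 7.31, and counts are therefore also given without it. The tissue was skeletal muscle by its markers: the fast myosin gene Myh4 stood at 26480 to 38760 CPM in injury and 39720 to 55430 CPM in naive libraries.

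Of 15715 genes tested, 1909 (12.1%) were higher and 850 (5.41%) lower in injury than in naive muscle, 17.6% in all, by edgeR's quasi-likelihood test at an adjusted p under 0.05. With upper-quartile scaling the split was 2028 higher and 523 lower. The increases were the larger changes. The median absolute log2 difference was 1.38 among genes called higher and 0.45 among genes called lower. A difference of at least 1 on the log2 scale was reached by 1245 genes called higher and 18 called lower, and one of at least 3 by 282 called higher and 1 called lower. Without naive replicate 1, 2044 genes (12.6%) were called higher and 443 (2.74%) lower, 15.4% in all. Those include 1693 of the 1909 and 374 of the 850. Leaving out naive replicate 2 left 1282 higher and 83 lower. Leaving out injury replicate 1, 2 or 3 left 267, 196 or 335 genes called lower, so the number of decreases depended on single libraries more than the number of increases, which lay between 1282 and 2054. The 3 libraries of each group did not overlap for 5392 genes (34.3%).

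**Figure D1:**
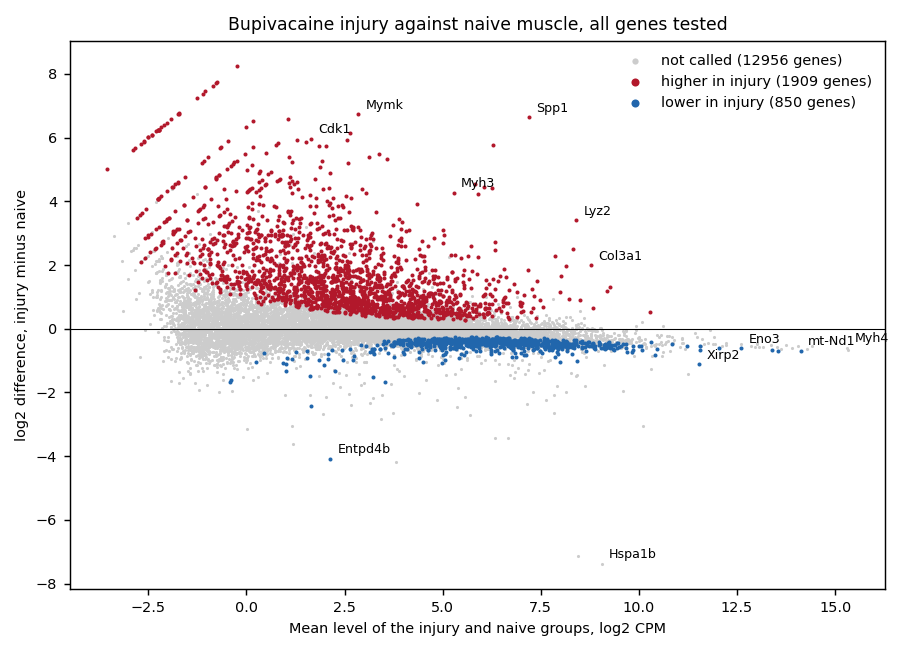
Each point is 1 of 15715 genes tested, with the log2 difference of injury minus naive muscle on the vertical axis and the mean log2 CPM of both groups on the horizontal axis. The 1909 genes called higher reach far above 0 at low and middle levels, while the 850 called lower lie close to 0, many of them at high levels.

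The 10 genes with the largest increase among those named for size were Mymk, Spp1, Mmp12, Cdk1, Chrng, Ccnb1, Gpnmb, Pclaf, Atp6v0d2 and Mki67. They fall into cell division (Cdk1, Ccnb1, Pclaf and Mki67), phagocytes and matrix breakdown (Spp1, Mmp12, Gpnmb and Atp6v0d2) and new muscle (Mymk and Chrng). Spp1 (chr5:104435118-104441050, mm10) encodes osteopontin, a secreted matrix protein of macrophages in injured tissue. It measured 249, 547 and 78.7 CPM in injury muscle, against 6.75, 1.12 and 1.07 CPM in naive muscle. Non-overlap of the groups was a condition for naming a gene for size, so it is no separate result for such genes. The injury values of Spp1 differed widely among themselves. The log2 difference was 6.65 ± 1.31 (SE; edgeR adjusted p = 0.0098).

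**Figure D2:**
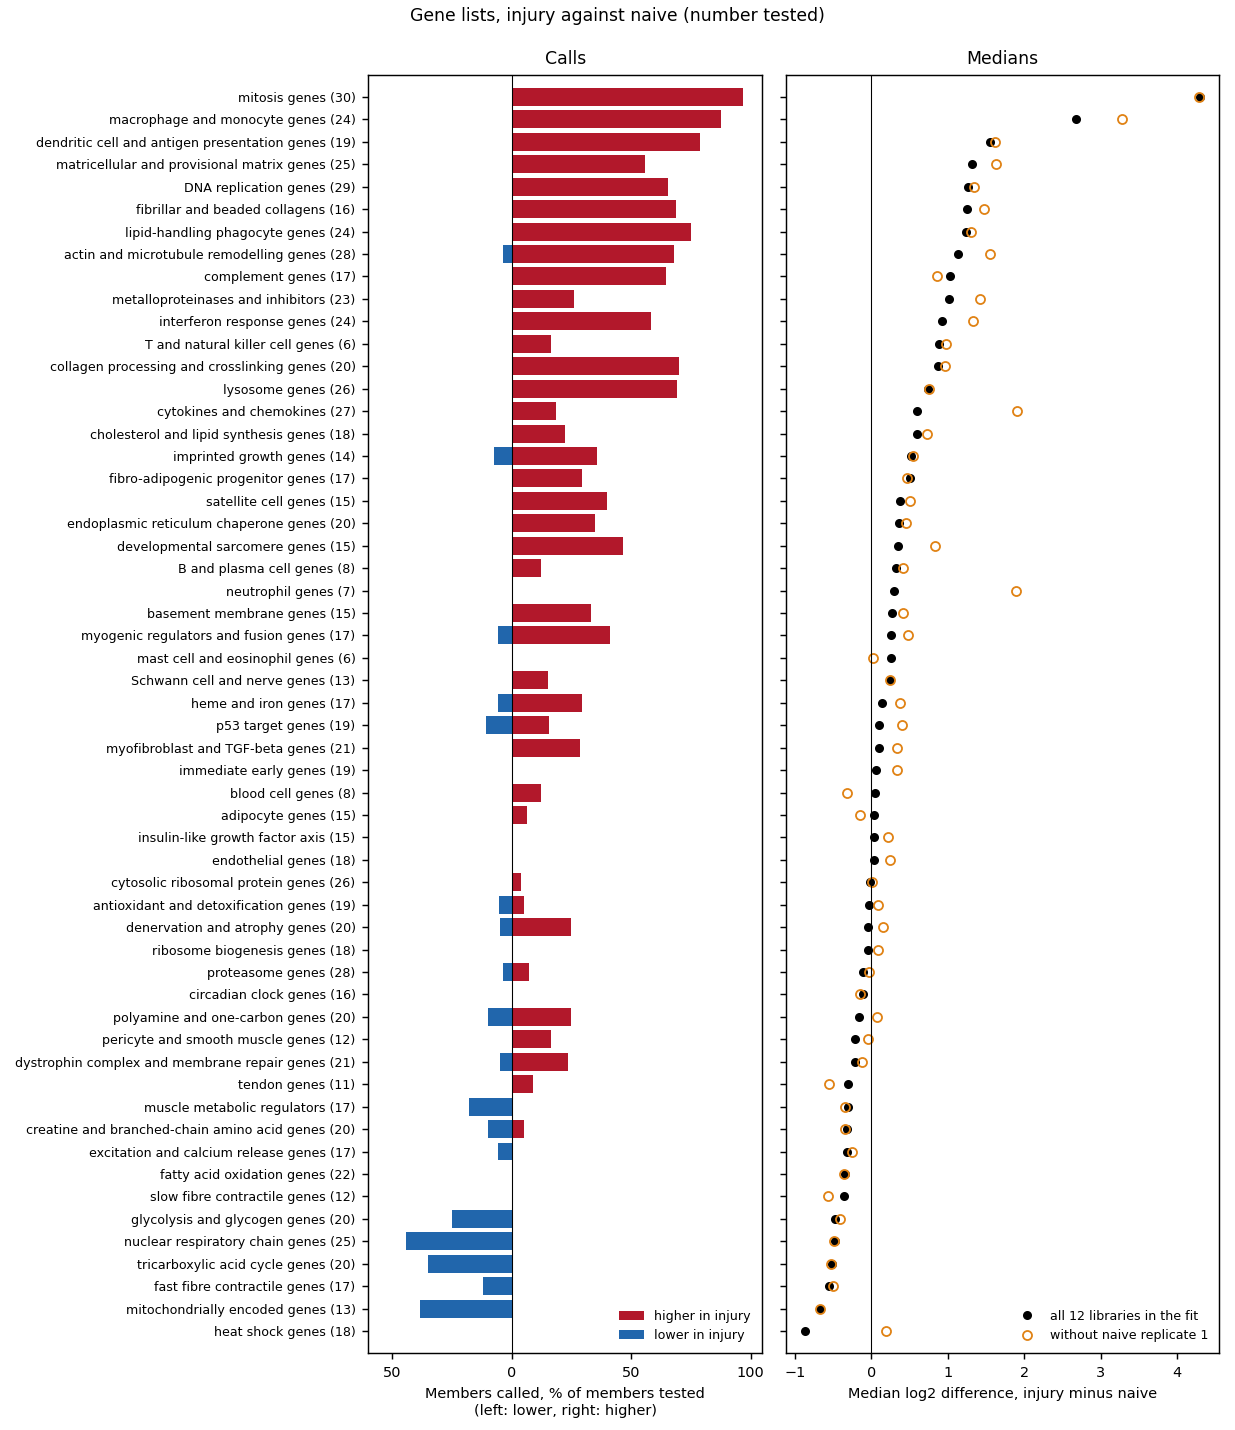
For each of 56 gene lists with at least 6 tested members (number tested in brackets), the left panel gives the share of tested members called higher (right of 0) or lower (left of 0) in injury muscle, and the right panel the median log2 difference of injury minus naive with all 12 libraries in the fit (filled) and without naive replicate 1 (open). Mitosis and macrophage genes lead the increases, energy lists hold the most members called lower, and the heat shock median changes sign without naive replicate 1.

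Genes of cell division made up the most uniform group of increases. Of 30 mitosis genes tested, 29 rose and all 30 estimates were higher, with a median log2 difference of 4.29, against -0.02 over all genes tested and 12.1% of all genes called higher. Without naive replicate 1 the count was again 29. Their summed level was 296, 204 and 143 CPM in injury libraries, against 47.8, 50.4 and 48.8 CPM in naive libraries. The naive values were nearly equal and every injury library lay above them, with injury replicate 3 the lowest of the injured. Of 29 genes of DNA replication, 19 rose, with a median of 1.27.

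Cdk1 (chr10:69335146-69352938, mm10), the kinase that drives entry into mitosis, measured 8.52, 6.65 and 3.26 CPM in injury muscle, against 0.188, 0.0533 and 0.0510 CPM in naive muscle. Its partner cyclin B1, encoded by Ccnb1, measured 8.23, 5.51 and 3.26 CPM against 0.188, 0.0533 and 0.0510 CPM. Naive muscle was thus at the edge of detection for both genes. The log2 differences were 5.97 ± 0.70 for Cdk1 and 5.85 ± 0.56 for Ccnb1 (SE; edgeR adjusted p = 0.00036 and 0.000175). Mki67, which encodes the Ki-67 protein of dividing cells, stood at 32.4, 18.4 and 10.2 CPM in injury and 0.813, 0.213 and 0.357 CPM in naive muscle. Cdc20, an activator of the ubiquitin ligase that ends mitosis, differed by 4.38 ± 0.50, and Hmmr, a protein of the mitotic spindle, by 5.76 ± 0.65 on the log2 scale (SE; edgeR adjusted p = 0.000329 and 0.000282).

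Among replication genes, Lig1, the ligase that joins new DNA fragments, measured 7.74, 8.88 and 4.72 CPM in injury and 0.875, 1.28 and 1.12 CPM in naive muscle. Tyms, which makes the thymidine precursor of DNA, differed by 2.93 ± 0.35, Ccne1, the cyclin of S phase entry, by 2.94 ± 0.36, and E2f1, a transcription factor of replication genes, by 3.16 ± 0.39 on the log2 scale (SE; edgeR adjusted p = 0.000329, 0.000351 and 0.000357). Some replication genes were well detected in naive muscle and changed less. Pcna, the clamp that holds the polymerase on DNA, stood at 37.4, 44.8 and 29.5 CPM in injury and 28.4, 22.9 and 26.2 CPM in naive muscle and was not called (log2 difference 0.53 ± 0.18, SE; edgeR adjusted p = 0.058).

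The promoters of the mitosis genes are shown because these members moved together. The windows are the 250 bases before the start site in RefSeq's promoter table (GRCm38.p6), which held 27025 genes, among them 25 of the 30 mitosis genes. Capitals mark the CCAAT box (CCAAT, or ATTGG on the other strand) and the letters TTTGAA (on the other strand TTCAAA) or TTTAAA, the core of the element known from cell cycle promoters. Cdk1 is at chr10:69352913-69353162 (minus strand), Ccnb1 at chr13:100786487-100786736 (minus strand) and Plk1, a mitotic kinase gene, at chr7:122159185-122159434 (plus strand).
Cdk1: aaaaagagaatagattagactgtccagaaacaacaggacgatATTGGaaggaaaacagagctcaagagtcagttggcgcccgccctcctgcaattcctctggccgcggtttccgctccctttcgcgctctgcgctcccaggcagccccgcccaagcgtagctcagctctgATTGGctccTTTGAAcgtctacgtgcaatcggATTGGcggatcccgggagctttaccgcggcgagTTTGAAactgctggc
Ccnb1: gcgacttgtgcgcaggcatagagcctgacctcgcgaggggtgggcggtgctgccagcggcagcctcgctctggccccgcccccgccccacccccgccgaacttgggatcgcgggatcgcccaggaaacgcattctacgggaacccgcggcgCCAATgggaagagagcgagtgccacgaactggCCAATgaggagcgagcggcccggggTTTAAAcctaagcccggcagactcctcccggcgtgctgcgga
Plk1: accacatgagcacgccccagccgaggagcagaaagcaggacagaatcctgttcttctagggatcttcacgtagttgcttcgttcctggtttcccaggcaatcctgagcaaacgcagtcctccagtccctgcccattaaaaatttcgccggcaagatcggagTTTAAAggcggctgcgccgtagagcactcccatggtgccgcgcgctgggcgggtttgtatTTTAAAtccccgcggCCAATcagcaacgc
A CCAAT box was found in 22 of the 25 mitosis promoters (88.0%), against 37.5% of all promoters, and the second element in 15 (60.0%), against 28.1%. Both were found in 14 (56.0%), against 10.1% of all promoters. In the promoters of 23 replication genes the shares were 60.9%, 26.1% and 13.0%. These matches are a description of letters and were not tested.

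Macrophage genes rose nearly as uniformly. Of 24 macrophage and monocyte genes, 21 rose, beside 12.1% of all genes, and all 24 estimates were higher, with a median log2 difference of 2.67. Without naive replicate 1 the count was 23. Their summed level was 1780, 1789 and 1060 CPM in injury libraries, against 278, 198 and 247 CPM in naive libraries. In bulk tissue, fewer cells of a type and less RNA per cell cannot be told apart, and the same holds for more cells and more RNA per cell.

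Adgre1, which encodes the F4/80 surface protein of macrophages, measured 35.3, 30.7 and 19.6 CPM in injury muscle, against 3.06, 1.87 and 3.42 CPM in naive muscle (log2 difference 3.36 ± 0.34, SE; edgeR adjusted p = 0.000296). Lyz2, the lysozyme gene of macrophages and monocytes, stood at 709, 728 and 417 CPM in injury and 63.5, 40.9 and 70.1 CPM in naive muscle. It shares sequence with Lyz1, whose reads may be counted with it. The groups did not overlap for either gene, and injury replicate 3 was the lowest injured library for both. Cybb, a subunit of the oxidase that makes reactive oxygen in phagocytes, differed by 2.86 ± 0.34, and Mrc1, the mannose receptor of tissue-resident and repair macrophages, by 1.65 ± 0.20 on the log2 scale (SE; edgeR adjusted p = 0.000451 and 0.000384).

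Of 24 genes listed for phagocytes that take up lipid and debris, 18 rose, beside 12.1% of all genes, with a median log2 difference of 1.23. Trem2, a lipid-sensing receptor of such cells, measured 26.0, 28.7 and 15.7 CPM in injury and 0.750, 0.320 and 0.663 CPM in naive muscle, with no overlap. Gpnmb, a membrane glycoprotein of debris-laden macrophages, stood at 204, 155 and 97.2 CPM in injury and 1.44, 2.40 and 4.44 CPM in naive muscle (log2 difference 5.76 ± 0.95, SE; edgeR adjusted p = 0.00385). Apoe, the carrier of cholesterol between cells, measured 662, 578 and 380 CPM against 56.5, 86.0 and 142 CPM in naive muscle. Atp6v0d2, a subunit of the lysosomal proton pump, and Mmp12, the elastase of macrophages, differed by 5.72 ± 0.71 and 6.14 ± 0.78 (SE; edgeR adjusted p = 0.000449 and 0.000752). Both were near the detection limit in naive muscle, at 0 to 0.255 CPM for Atp6v0d2 and 0 to 0.563 CPM for Mmp12.

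Lysosomal genes rose in 18 of 26 cases, beside 12.1% of all genes, with a median of 0.75. Grn, which encodes the lysosomal protein progranulin, measured 147, 155 and 107 CPM in injury and 22.0, 18.7 and 33.0 CPM in naive muscle. Lipa, the acid lipase of lysosomes, differed by 2.18 ± 0.25 and Npc2, a cholesterol exporter of lysosomes, by 1.1 ± 0.15 (SE; edgeR adjusted p = 0.000351 and 0.000553).

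Antigen presentation, complement and interferon genes also rose. Of 19 dendritic cell and antigen presentation genes, 15 rose, beside 12.1% of all genes, with a median of 1.55. Cd74, the chaperone of class II molecules, measured 107, 97.1 and 102 CPM in injury muscle, against 33.6, 28.8 and 42.2 CPM in naive muscle. Its injury values were closer together than those of Adgre1 and Lyz2, and lay above every naive value (log2 difference 1.55 ± 0.16, SE; edgeR adjusted p = 0.000175). Of 17 complement genes, 11 rose, with the smallest adjusted p for C1qb, part of the complex that starts the classical pathway, at 97.6, 108 and 65.4 CPM in injury and 12.8, 11.1 and 20.5 CPM in naive muscle. C3ar1, the receptor of the complement fragment C3a, differed by 3.44 ± 0.47 (SE; edgeR adjusted p = 0.00102). Of 24 interferon response genes, 14 rose, among them Oas1a, a sensor of double-stranded RNA, by 2.39 ± 0.46 on the log2 scale (SE; edgeR adjusted p = 0.00377). That count fell to 6 without naive replicate 2 or without injury replicate 2.

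Of 27 cytokine and chemokine genes tested, 5 rose, a share not far from the 12.1% of all genes, and 11 rose without naive replicate 1. Cxcl16, a chemokine that also binds oxidised lipid, measured 7.66, 6.68 and 4.50 CPM in injury and 1.5, 0.800 and 1.17 CPM in naive muscle (log2 difference 2.44 ± 0.34, SE; edgeR adjusted p = 0.000607). Ccl2, the main attractant of monocytes, stood at 6.27, 15.99 and 2.27 CPM in injury and 21.5, 0.213 and 0.561 CPM in naive muscle, the highest of the 6 values being naive replicate 1. Its log2 difference was 0.17 ± 1.25 (SE; edgeR adjusted p = 0.95), and 4.43 without naive replicate 1 (edgeR adjusted p = 0.022).

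Markers of other white blood cells gave few calls (12.1% of all genes rose). Of 17 neutrophil genes only 7 passed the filter on low counts, and by edgeR 0 were called, 1 had an unadjusted p under 0.05, and DESeq2 called 1. Their summed level over all 17 was 11.4, 16.2 and 8.74 CPM in injury and 15.0, 3.25 and 5.56 CPM in naive libraries. The median log2 difference of the 7 was 1.89 without naive replicate 1, against 0.30 with it, and 1 gene was called, Csf3r, a growth factor receptor of neutrophils (log2 difference 3.18, edgeR adjusted p = 0.00799). The neutrophil marker Ly6g had 0 counts in every injury library, 0 in naive replicates 2 and 3 and 2 in naive replicate 1, too few to compare the groups. Of 19 T and natural killer cell genes, 6 passed the filter and 1 rose, Thy1, which fibroblasts express too. Cd3e, a chain of the T cell receptor complex, stood at 0.817 to 1.72 CPM in injury and 0.625 to 2.08 CPM in naive muscle. Of 16 B and plasma cell genes, 8 passed and 1 rose, Sdc1, which is not limited to plasma cells. Ighm, the heavy chain of immunoglobulin M, made up most of that list's level, at 137, 80.3 and 166 CPM in injury and 130, 144 and 154 CPM in naive muscle, and its groups overlapped.

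**Figure D3:**
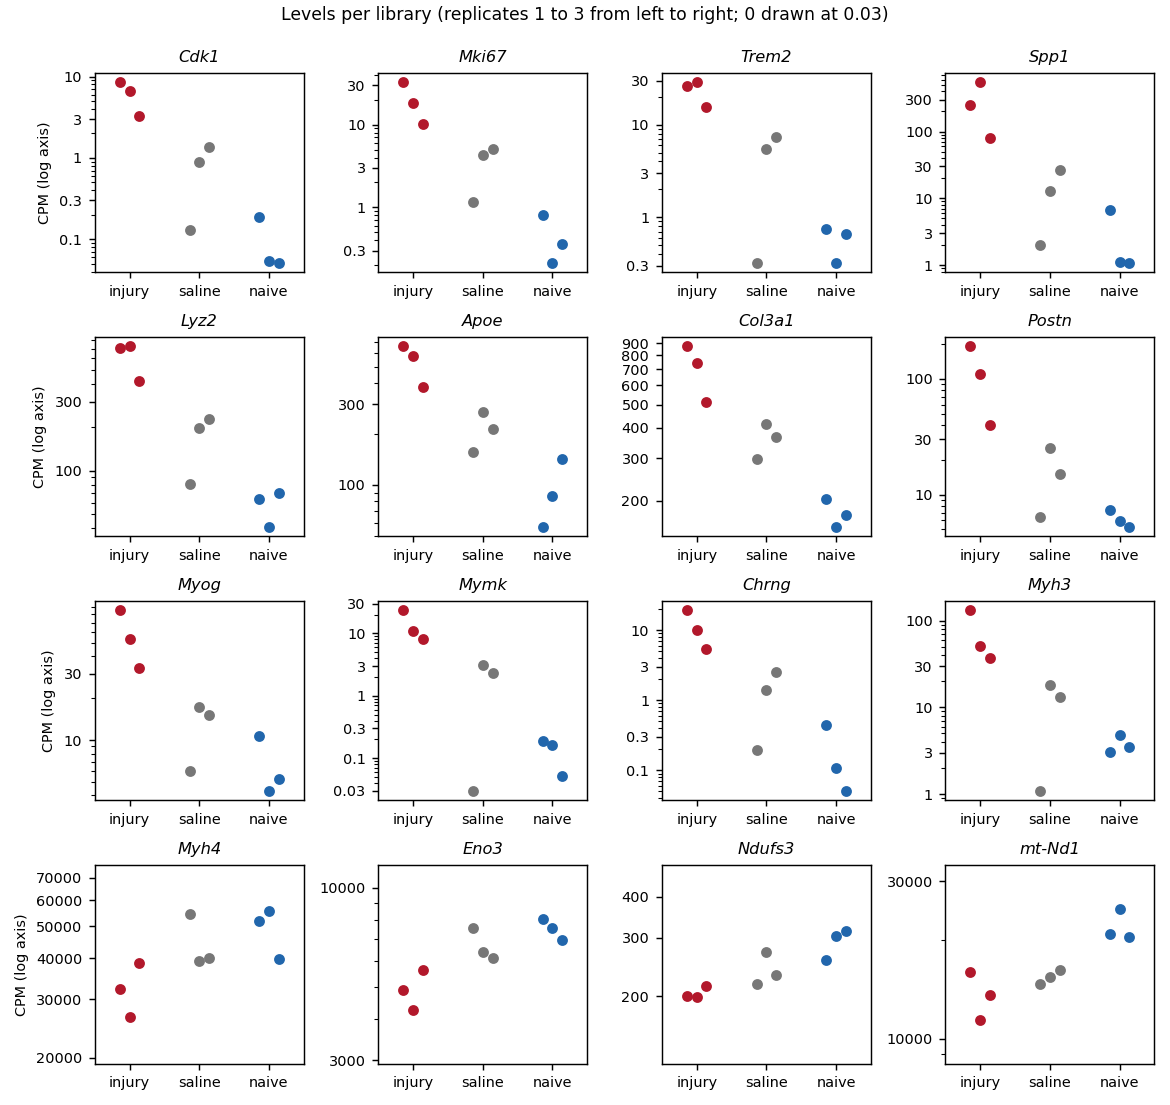
Each panel gives the CPM of 1 gene on a log axis in the 3 injury, 3 saline and 3 naive libraries. For the 12 genes of the upper 3 rows every injury library lies above every naive library. For Myh4, Eno3, Ndufs3 and mt-Nd1 in the lowest row every injury library lies below every naive library.

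Collagen and matrix genes rose together with their processing enzymes. Of 16 fibrillar and beaded collagen genes, 11 rose, beside 12.1% of all genes, with a median log2 difference of 1.25. Without naive replicate 1, 13 rose, beside 12.6% of all genes. Their summed level was 2594, 2274 and 1633 CPM in injury libraries, against 759, 611 and 721 CPM in naive libraries. Col3a1 (chr1:45311538-45349706, mm10), the fibrillar collagen of early repair tissue, measured 873, 742 and 512 CPM in injury and 202, 156 and 175 CPM in naive muscle. Col1a1, the main chain of scar and tendon collagen, stood at 475, 437 and 242 CPM in injury and 79.5, 76.7 and 79.5 CPM in naive muscle. Neither gene overlapped between the groups, and the log2 differences were 2.0 ± 0.21 for Col3a1 and 2.29 ± 0.28 for Col1a1 (SE; edgeR adjusted p = 0.000212 and 0.000368).

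Of 25 matricellular and provisional matrix genes, 14 rose, beside 12.1% of all genes, with a median of 1.32. Fn1, which encodes the fibronectin of the provisional matrix, measured 245, 255 and 180 CPM in injury and 60.0, 49.7 and 78.0 CPM in naive muscle. Postn, which encodes the matricellular protein periostin, ranged more between injury libraries, at 192, 111 and 40.3 CPM, against 7.38, 5.86 and 5.26 CPM in naive muscle (log2 difference 4.22 ± 0.67, SE; edgeR adjusted p = 0.0028). Of 20 genes that trim, hydroxylate or crosslink collagen, 14 rose, among them Bmp1, which removes the C-terminal propeptide of procollagen, at 39.5, 38.5 and 39.7 CPM in injury and 23.4, 19.9 and 23.8 CPM in naive muscle.

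Of 23 metalloproteinases and inhibitors, 6 rose, beside 12.1% of all genes, and 12 rose without naive replicate 1, beside 12.6%. Mmp14, a membrane-bound collagenase, differed by 1.47 ± 0.21 and Adam19, a membrane protease, by 1.93 ± 0.23 on the log2 scale (SE; edgeR adjusted p = 0.000821 and 0.000329). Timp1, a secreted inhibitor of these enzymes, measured 9.71, 21.0 and 4.43 CPM in injury and 10.8, 0.640 and 0.868 CPM in naive muscle. It was called without naive replicate 1 (log2 difference 4.0, edgeR adjusted p = 0.008) and not with it (1.56 ± 0.93, SE; edgeR adjusted p = 0.29).

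Basement membrane genes, whose products sheathe each fibre, changed less, with 5 of 15 higher, beside 12.1% of all genes, and a median of 0.28. Genes of fibro-adipogenic progenitors, which give rise to connective tissue and fat in muscle, rose in 5 of 17 cases, beside the same 12.1%. Without naive replicate 3 these counts were 8 and 10. Without naive replicate 2 they were 1 and 2, and without injury replicate 1 they were 2 and 3. Without injury replicate 3 they were 3 and 2, and the progenitor count was 2 without injury replicate 2. Saline muscle was as high for both lists. The medians for saline minus naive were 0.39 for basement membrane and 0.52 for progenitor genes, and those for injury minus saline -0.10 and -0.08. Pdgfra, the surface receptor that marks these progenitors, measured 34.5, 38.6 and 42.7 CPM in injury and 29.1, 20.5 and 31.7 CPM in naive muscle, a small difference next to those of the collagens (0.51 ± 0.16, SE; edgeR adjusted p = 0.0408). Tgfb1, the growth factor that drives matrix production, stood at 26.1, 25.9 and 15.0 CPM in injury and 6.06, 4.96 and 6.94 CPM in naive muscle.

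Several genes of new muscle formation rose. Of 17 myogenic regulators and fusion genes, 7 rose and 1, Igfn1, fell, beside 12.1% and 5.41% of all genes. Igfn1, which encodes a sarcomere protein, was not called without naive replicate 1 (edgeR adjusted p = 0.0655). Differentiation of myoblasts is driven by Myog, which measured 86.1, 53.6 and 33.1 CPM in injury muscle, against 10.6, 4.32 and 5.26 CPM in naive muscle (log2 difference 3.11 ± 0.50, SE; edgeR adjusted p = 0.0028). Mymk (chr2:27061636-27072179, mm10) encodes myomaker, a membrane protein that myoblasts need to fuse. It had the largest increase of the genes named for size, at 23.7, 11.02 and 8.27 CPM in injury and 0.188, 0.160 and 0.0510 CPM in naive muscle (log2 difference 6.73 ± 1.04, SE; edgeR adjusted p = 0.00224). Its partner in fusion, Mymx, stood at 10.7, 6.04 and 4.76 CPM in injury and 0.563, 0 and 0.102 CPM in naive muscle. For all 3 genes injury replicate 1 was the highest library. The groups did not overlap for any of them, which for Mymk was a condition of its being named for size.

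Myod1, the transcription factor that commits cells to muscle, measured 48.1, 39.4 and 42.7 CPM in injury and 195, 19.3 and 19.4 CPM in naive muscle, naive replicate 1 being the highest. Its log2 difference was -0.84 ± 0.78 (SE; edgeR adjusted p = 0.51), and 1.21 without naive replicate 1 (edgeR adjusted p = 0.00061). Runx1, a transcription factor induced in damaged muscle, stood at 26.6, 24.6 and 13.1 CPM in injury and 65.1, 2.24 and 3.22 CPM in naive muscle, with a log2 difference of -0.12 ± 1.03 (edgeR adjusted p = 0.96) and 3.02 without naive replicate 1 (edgeR adjusted p = 0.0013). Whether these genes differ from naive muscle thus depended on 1 library.

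Of 15 satellite cell markers, 6 rose, beside 12.1% of all genes, and the median log2 difference over the list was 0.38. Pax7, the transcription factor that defines these cells, measured 6.51, 5.86 and 4.39 CPM in injury and 3.38, 2.51 and 3.11 CPM in naive muscle (log2 difference 0.90 ± 0.23, SE; edgeR adjusted p = 0.018). Cxcr4, a chemokine receptor that white blood cells carry too, stood at 18.0, 11.9 and 10.6 CPM in injury and 2.5, 2.56 and 1.99 CPM in naive muscle. It differed by 2.52 ± 0.27, and Megf10, another gene of the list, by 1.81 ± 0.31 on the log2 scale (SE; edgeR adjusted p = 0.000258 and 0.00182). The list count was 3 without injury replicate 1 or without injury replicate 2, and 4 without naive replicate 2.

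Of 15 genes listed for the developing sarcomere and junction, 7 rose, beside 12.1% of all genes, with a median of 0.35, or 0.84 without naive replicate 1. The smallest adjusted p among the 7 was that of Vim, an intermediate filament gene that is not limited to muscle. Vim measured 525, 476 and 352 CPM in injury and 120, 89.7 and 133 CPM in naive muscle, and is part of the sums that follow. Summed over the list, the level was 1672, 1744 and 1398 CPM in injury libraries, against 7532, 1221 and 1143 CPM in naive libraries, naive replicate 1 standing far above the rest. Myh3, the embryonic myosin heavy chain that marks newly formed fibres, measured 133, 51.7 and 37.4 CPM in injury muscle, against 3.06, 4.85 and 3.47 CPM in naive muscle. The naive values lay close together and the injury values over a wide range above them (log2 difference 4.27 ± 0.86, SE; edgeR adjusted p = 0.0104). Myl4, an embryonic myosin light chain, and Tnnt2, the troponin T of embryonic and cardiac muscle, differed by 2.12 ± 0.38 and 2.62 ± 0.40 (SE; edgeR adjusted p = 0.00424 and 0.0016). Myh8, the perinatal myosin, stood at 18.4, 13.0 and 13.0 CPM in injury and 13.2, 17.3 and 10.2 CPM in naive muscle, and its groups overlapped.

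Chrng, which encodes the receptor subunit for acetylcholine of fetal muscle, measured 19.3, 10.1 and 5.30 CPM in injury and 0.438, 0.107 and 0.0510 CPM in naive muscle (log2 difference 5.92 ± 0.90, SE; edgeR adjusted p = 0.00182). Its promoter is shown because E-boxes bound by Myod1 and Myog, spelled CAGCTG in capitals, are known from promoters of this gene family. The 250 bases before its start site in RefSeq's table lie at chr1:87205561-87205810 (GRCm38.p6, plus strand). GENCODE starts the gene farther upstream, at chr1:87204657-87212694, so the window lies inside the gene in that annotation.
Chrng: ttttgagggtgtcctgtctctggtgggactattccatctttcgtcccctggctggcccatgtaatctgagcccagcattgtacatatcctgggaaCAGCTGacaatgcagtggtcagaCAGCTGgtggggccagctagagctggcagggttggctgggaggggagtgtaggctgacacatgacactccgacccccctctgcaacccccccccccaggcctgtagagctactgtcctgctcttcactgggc
The window holds CAGCTG at positions -155 and -132 from the start site. CAGCTG was found in 14.7% of all promoters, in 1 of 9 promoters of myogenic and fusion genes (11.1%) and in 3 of 13 of developmental sarcomere genes (23.1%). The same letters read alike on both strands, and only this spelling was searched.

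Genes of denervated or uninnervated fibres rose in 5 of 20 cases and 1, Myo18b, fell, beside 12.1% and 5.41% of all genes. Myo18b, an unconventional myosin of muscle, was not called without naive replicate 1 (log2 difference -0.30, edgeR adjusted p = 0.231, against -0.64 with it) and was called in 1 of the 6 fits that left out a library. Chrna1, the receptor subunit shared by fetal and adult receptors, stood at 76.6, 65.8 and 43.6 CPM in injury and 21.0, 17.0 and 23.5 CPM in naive muscle. No injury value overlapped with a naive one, and the log2 difference was 1.60 ± 0.22 (SE; edgeR adjusted p = 0.000752). Without naive replicate 2, injury replicate 1 or injury replicate 2 the list count was 3.

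Of 21 genes of the dystrophin complex and of membrane repair, 5 rose and 1, Sgcd, fell, beside 12.1% and 5.41% of all genes. Anxa1 and Anxa2, annexins that gather at torn membranes, differed by 1.70 ± 0.18 and 1.65 ± 0.24 on the log2 scale (SE; edgeR adjusted p = 0.000256 and 0.000851). Anxa2 measured 146, 162 and 94.3 CPM in injury and 57.4, 32.9 and 38.0 CPM in naive muscle. Myof, a relative of dysferlin found in fusing myoblasts, stood at 45.7, 38.1 and 23.4 CPM in injury and 8.19, 5.60 and 7.81 CPM in naive muscle. Macrophages and fibroblasts express annexins too. Sgcd, a subunit of the dystrophin complex, stood at 29.8, 27.4 and 27.3 CPM in injury and 34.4, 36.9 and 35.8 CPM in naive muscle (log2 difference -0.34 ± 0.09, SE; edgeR adjusted p = 0.0221) and was among the calls lost without naive replicate 1 (edgeR adjusted p = 0.0516).

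Adult fibre genes were lower by small amounts, which depend in part on the TMM factors, and few passed the test. Of 17 fast fibre contractile genes, all 17 estimates were lower, with a median log2 difference of -0.55. Of these, 2, Tmod4 and Myoz3, were called, beside 5.41% of all genes called lower. Neither was called without naive replicate 2, injury replicate 1 or injury replicate 2, and 1 was without naive replicate 3. DESeq2 called 8 of the 17. Their summed level was 138300, 119400 and 159900 CPM in injury libraries, against 192800, 225600 and 172900 CPM in naive libraries. Myh4, the fast myosin heavy chain, measured 32320, 26480 and 38760 CPM in injury and 51770, 55430 and 39720 CPM in naive muscle (log2 difference -0.59 ± 0.25, SE; edgeR adjusted p = 0.12). Its groups did not overlap, but injury replicate 3 and naive replicate 3 were nearly equal. Tmod4, which caps actin filaments in muscle, stood at 404, 388 and 463 CPM in injury and 536, 659 and 597 CPM in naive muscle (log2 difference -0.51 ± 0.13, SE; edgeR adjusted p = 0.0184). Of 12 slow fibre genes 0 were called by edgeR, DESeq2 or limma, and 0 had an unadjusted p under 0.05.

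Energy genes were lower almost throughout, again by small amounts that depend in part on the TMM factors. Over 7 lists with 137 distinct genes, 132 estimates were lower, with a median log2 difference of -0.44, and 33 genes were called lower (5.41% of all genes were) and 1, Gatm, higher. The lower calls depended on every one of the 6 libraries. They numbered 10 without naive replicate 1, 1 without naive replicate 2, 8 without naive replicate 3, 6 without injury replicate 1, 2 without injury replicate 2 and 7 without injury replicate 3. No gene of the lists fell by more than 1.67 on the log2 scale.

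Of 25 nuclear genes of the respiratory chain, 11 fell, beside 5.41% of all genes, with a median of -0.48. The count was 3 without naive replicate 1, 0 without naive replicate 2 or 3, and 1 without any one injury library. Ndufs3, a subunit of complex I, measured 200, 198 and 215 CPM in injury muscle, against 258, 305 and 314 CPM in naive muscle. The injury values were nearly equal and all below the lowest naive value (log2 difference -0.52 ± 0.12, SE; edgeR adjusted p = 0.0112). Of 13 mitochondrially encoded genes, 5 fell (3 without naive replicate 1 or 3, and 1 without naive replicate 2, injury replicate 2 or injury replicate 3), among them mt-Nd1, at 16000, 11440 and 13540 CPM in injury and 20750, 24740 and 20340 CPM in naive muscle (log2 difference -0.68 ± 0.18, SE; edgeR adjusted p = 0.023). The share of all counts taken by these genes did not separate the groups as plainly, since injury replicate 1 lay above naive replicate 1.

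In the tricarboxylic acid cycle and its entry, 7 of 20 genes fell, beside 5.41% of all genes, with a median of -0.51. That count was 1 without naive replicate 1, naive replicate 3 or injury replicate 3, and 0 without any of the others. Pdhb and Pdha1, subunits of pyruvate dehydrogenase, which feeds the cycle, differed by -0.54 ± 0.14 and -0.58 ± 0.18 (SE; edgeR adjusted p = 0.0216 and 0.0394). Of 20 glycolysis and glycogen genes, 5 fell, and their calls were lost without naive replicate 1, naive replicate 2, injury replicate 1 or injury replicate 2, while 2 genes of the list were called lower without naive replicate 3. Eno3, the muscle enolase, stood at 4888, 4266 and 5652 CPM in injury and 8059, 7533 and 6936 CPM in naive muscle (log2 difference -0.61 ± 0.18, SE; edgeR adjusted p = 0.0363), and its adjusted p was 0.12 without naive replicate 1. Of 22 fatty acid oxidation genes, 21 estimates were lower and 0 passed by edgeR, DESeq2 or limma, with 3 at an unadjusted p under 0.05. Perm1, a regulator of mitochondrial genes in muscle, measured 179, 138 and 174 CPM in injury and 324, 336 and 243 CPM in naive muscle (log2 difference -0.88 ± 0.24, SE; edgeR adjusted p = 0.0267). Without naive replicate 1 its adjusted p was 0.077.

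**Figure D4:**
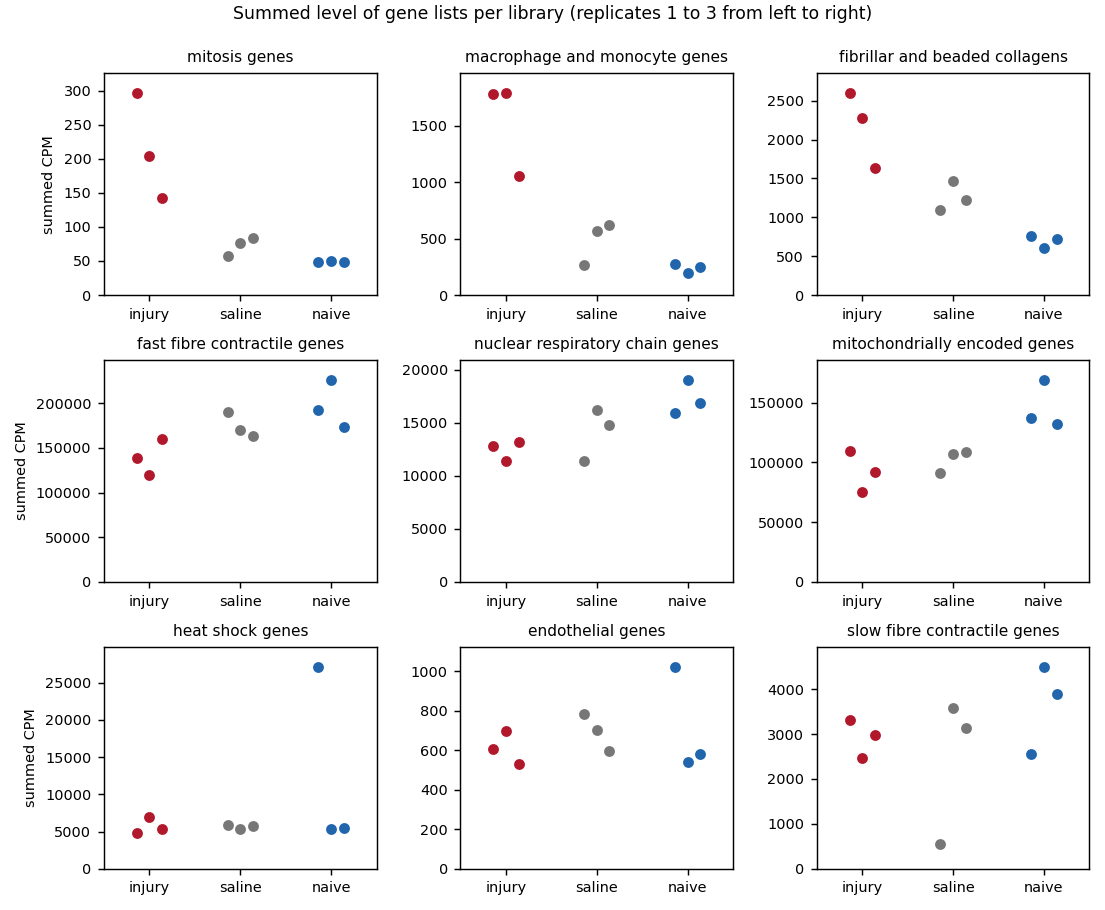
Summed CPM of 9 gene lists in the 3 injury, 3 saline and 3 naive libraries, on axes that start at 0. Mitosis, macrophage and collagen sums are higher in every injury library than in any naive library, fast fibre, respiratory chain and mitochondrially encoded sums are lower, and naive replicate 1 alone is high for heat shock genes.

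Many muscle proteins have a close relative used outside mature muscle, and 38 such pairs were tested. In 32 of the 38 pairs the muscle form had a lower and its partner a higher estimate, and in the other 6 both estimates were lower. All 34 muscle forms had lower estimates and 7 fell, while 21 of 38 partners rose and 0 fell by edgeR. Of all genes 12.1% rose and 5.41% fell, and 8161 of 15715 estimates were lower. Without naive replicate 1 the partners called were again 21, and the muscle forms called numbered 1. In 35 pairs the ratio of the muscle form to its partner, on the FPKM scale, was lower in injury than in naive muscle.

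Both members passed in 4 pairs, Eno3 and Eno1, Pgam2 and Pgam1, Cox8b and Cox8a, and Slc25a4 and Slc25a5. Eno1, the general enolase, measured 174, 168 and 138 CPM in injury and 108, 92.0 and 90.6 CPM in naive muscle, higher by 0.73 ± 0.13 on the log2 scale (SE; edgeR adjusted p = 0.00208), beside the -0.61 of Eno3. The muscle form still far exceeded its partner. On the length-scaled FPKM scale Eno3 stood at 2829 in injury and 4306 in naive muscle, and Eno1 at 29.7 and 17.9, so the ratio was 95.4 in injury and 240 in naive muscle. The number of such pairs was 13 by DESeq2 and 0 without naive replicate 1, naive replicate 2, injury replicate 1 or injury replicate 2. It was 1 without naive replicate 3 and 3 without injury replicate 3.

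The ratios of 2 pairs with a partner of embryonic muscle are given first. Chrng and the adult receptor subunit Chrne stood at 2.78 and 8.06 FPKM in injury and 0.0477 and 8.11 FPKM in naive muscle, a ratio of adult to fetal subunit of 2.90 in injury and 170 in naive muscle. For Myh4 and Myh3 the ratio of adult to embryonic myosin was 443 in injury and 13000 in naive muscle. Other early partners were mixed. The ratio of the adult fast light chain Myl1 to the embryonic Myl4 was 441 in injury and 2870 in naive muscle. That of the fast troponin T gene Tnnt3 to Tnnt2 was 2696 and 24570. By contrast, the ratio of Myh1 to the perinatal Myh8 was 445 in injury and 497 in naive muscle. That of Acta1 to the cardiac actin gene Actc1 was 215 and 165. In metabolism, Ckb, the creatine kinase of brain and other tissues, differed by 1.65 ± 0.21 and Pygl, the liver glycogen phosphorylase, by 1.63 ± 0.21 on the log2 scale (SE; edgeR adjusted p = 0.000431 and 0.000396). Hk3, a hexokinase of white blood cells, differed by 3.58 ± 0.39 (SE; edgeR adjusted p = 0.000266). Eef1a1, the general elongation factor, measured 1016, 882 and 707 CPM in injury and 353, 308 and 395 CPM in naive muscle, and processed copies of it in the genome may share its reads. The partners are also expressed by macrophages and connective tissue cells, whose markers rose in the same libraries, and their part in these values was not tested.

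**Figure D5:**
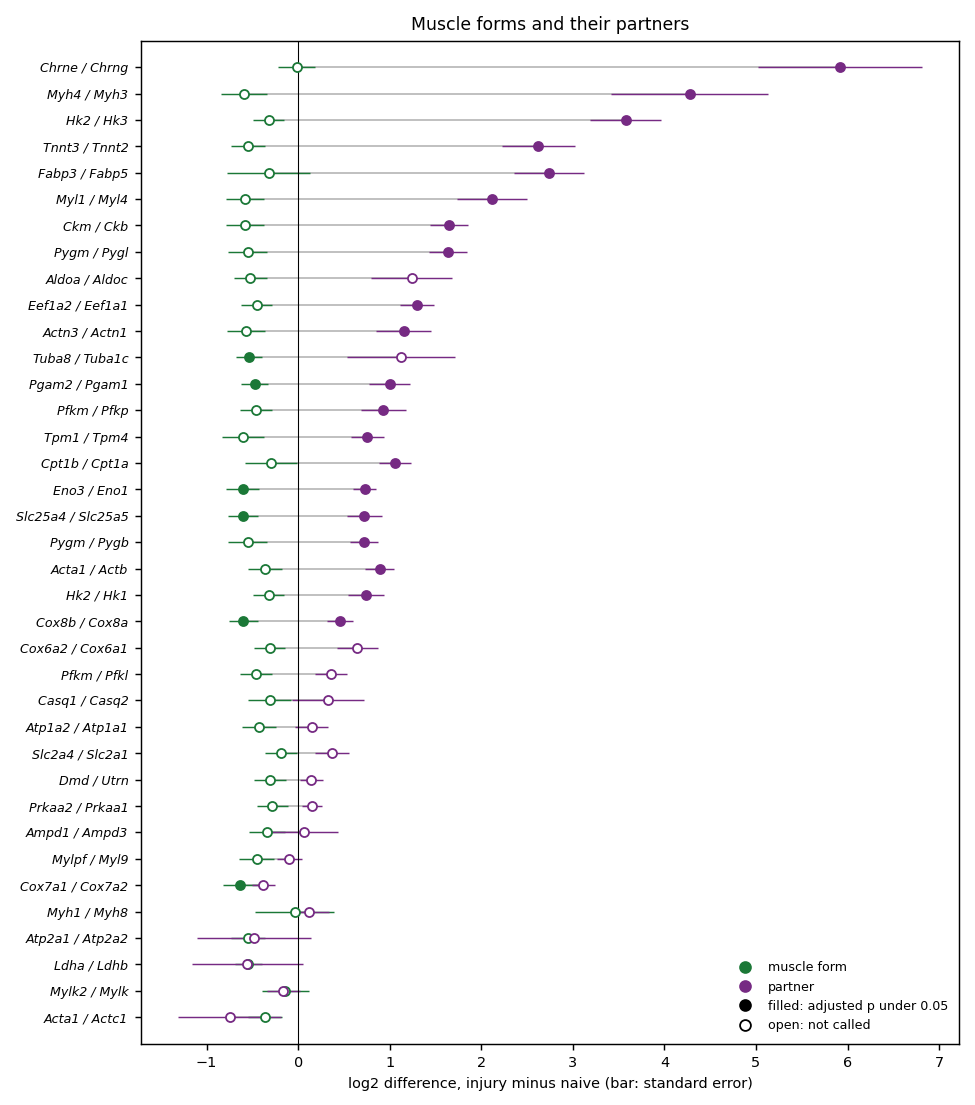
For each of 37 of the 38 pairs, the log2 difference of injury minus naive muscle is drawn for the muscle form (green) and its partner (purple), with the standard error as a bar and filled points for an edgeR adjusted p under 0.05. All muscle forms lie left of 0, and partners run up to the 5.92 of Chrng.

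Calls among genes of other resident cell types were near or below the share over all genes, of which 12.1% rose. By edgeR 0 of 18 endothelial genes were called, with 0 at an unadjusted p under 0.05 and 0 by DESeq2 or limma, and a median log2 difference of 0.04. Their summed level was 608, 695 and 530 CPM in injury and 1020, 540 and 581 CPM in naive libraries, naive replicate 1 being the highest. Of 12 pericyte and smooth muscle genes 2 rose and of 13 Schwann cell and nerve genes 2. Without naive replicate 2, injury replicate 1 or injury replicate 2 these counts were 0 to 1, and the first was 1 without naive replicate 3. Of 15 adipocyte genes 1 rose, Cebpa, and of 11 tendon genes 1, Scx, with 2 of the tendon genes without naive replicate 1. Circadian clock genes gave 0 of 16 calls by edgeR, with 3 at an unadjusted p under 0.05, 0 by DESeq2 and 1 by limma-voom, and 2 without naive replicate 3.

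Heat shock genes showed how far naive replicate 1 stood from the other libraries. Their summed level was 4863, 6932 and 5388 CPM in injury libraries, against 27090, 5333 and 5423 CPM in naive libraries. All 18 estimates were lower in injury muscle, with a median log2 difference of -0.86, and by edgeR 0 were called, with 6 at an unadjusted p under 0.05 and 1 by DESeq2. Without naive replicate 1 the median was 0.19 and 2 were called higher, a share near the 12.6% of all genes in that fit. Without naive replicate 2, 2 were called lower, beside 83 of all 16008 genes tested. Without naive replicate 3, 5 were called lower, beside 621 of 16170. Hspa1b, an inducible chaperone whose near-identical copy Hspa1a may share its reads, measured 4.59, 8.53 and 5.89 CPM in injury and 3154, 3.36 and 4.95 CPM in naive muscle, and the log2 difference was -7.37 ± 2.46 (SE; edgeR adjusted p = 0.072), or 0.66 without naive replicate 1.

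The largest decreases were also shaped by naive replicate 1. Of the 10 genes with the largest decrease among those named for size, Gm10382, Rims4, Xirp2, Nudt4, Asb12 and Ankrd33b were not called without that library. Xirp2, an actin-binding protein of muscle, measured 1873, 1800 and 1934 CPM in injury and 6639, 3211 and 2353 CPM in naive muscle. Entpd4b, mt-Atp8 and Neto2 kept their calls in each of the 6 fits that left out a library. Neto2, an auxiliary subunit of kainate receptors, stood at 15.4, 14.8 and 14.1 CPM in injury and 28.2, 34.4 and 28.4 CPM in naive muscle (log2 difference -1.04 ± 0.18, SE; edgeR adjusted p = 0.00175).

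Injection alone was sampled in the saline libraries. Between saline and naive muscle edgeR called 0 of 15715 genes (0.0%), with 1858 at an unadjusted p under 0.05, and DESeq2 called 132 higher and 25 lower. This comparison and the next share libraries with that of injury and naive muscle. Against saline, 633 genes (4.03%) differed in injury muscle, 622 higher and 11 lower. Saline values were uneven. Cdk1 stood at 0.128, 0.898 and 1.35 CPM in saline libraries, Trem2 at 0.321, 5.45 and 7.37 CPM, and Mymk at 0, 3.09 and 2.36 CPM, so saline replicate 1 resembled naive muscle in level while the other saline libraries lay between the groups. The median over the mitosis list was 1.74 for saline minus naive and 2.32 for injury minus saline, and that over the macrophage list 0.98 and 1.82. For complement genes the median was 0.93 for saline minus naive and 0.10 for injury minus saline, and for mitochondrially encoded genes -0.51 and -0.17. Members of the complement list differed among themselves. C1qb and C3ar1, named above for their small adjusted p, lay well above that median, at 1.52 and 2.25 for injury minus saline (edgeR adjusted p = 0.0222 and 0.0227). Saline replicate 1 also differed in slow fibre genes, with a summed level of 541 CPM, against 3590 and 3145 CPM in the other saline libraries and 2463 to 3318 CPM in injury libraries.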

How the data were processed

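RNA from gastrocnemius muscle was sequenced in 12 libraries. Per the submitters' processing notes, HISAT2 2.0.5 and the mm10 genome were used. Which counter, strand setting and annotation were used is not given in the sources used here. Per library, the authors deposited raw gene counts and FPKM values. Gene names, positions and biotypes came from the deposited table and from GENCODE M21.

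Counts were tested with edgeR 4.0.16 (R 4.3.3): TMM scaling, removal of genes with low counts, 1 quasi-likelihood fit over all 12 libraries, the contrast injury minus naive, and Benjamini-Hochberg adjustment with calls at 0.05. Standard errors were derived from the test statistic. DESeq2 1.42.0, limma 3.58.1, other scalings and filters, and fits that left out 1 library were alternatives. Scripts were tested on simulated data.

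The members and the gene lists were chosen with earlier results of these data known. Up to 10 genes per direction were named for size, those with the largest change among called protein-coding genes. These had to reach a mean of 5 CPM in the higher group and not overlap between the injury and naive libraries. Also named were up to 4 called genes per list and direction by adjusted p, isoform pairs, and 10 non-coding genes. The text shows some of all these. Ccl2, Cd3e, Hspa1a, Hspa1b, Ighm, Ly6g, Lyz1, Myod1, Mymx, Myog, Pax7, Pcna, Plk1, Postn, Rpl3l, Runx1, Timp1 and Trem2 were named after their values were seen. Genes that overlap another gene were left out where strand could decide the count. FPKM values served to compare levels between genes. A gene counted in its lists and pairs is not reported here.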

Additional observations from a re-analysis of the deposited data

How the results depend on the processing

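The number of genes called, 2759 over all 12 libraries, was 1743 with the injury and naive libraries alone and 883 with a minimum of 1.5-fold, and lay between 1365 and 2551 when 1 library was left out. Genes called higher numbered 880 with the 1.5-fold minimum and 1282 to 2054 when 1 library was left out. Genes called lower were the least stable: 523 with upper-quartile scaling, 515 with no filter on low counts, 536 with a stricter filter, 346 with the 6 libraries alone, 3 with the 1.5-fold minimum and 83 to 621 when 1 library was left out. In none of these settings was a called gene called in the opposite direction. Pairs with the muscle form lower and the partner higher numbered 4, 13 by DESeq2, 0 with the 1.5-fold minimum and 0 to 3 when 1 library was left out.

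Same-numbered injury and naive libraries had correlations of 0.0378, -0.234 and 0.115 in their deviations from the group means. With 3 libraries per group these values cannot decide whether replicate numbers pair the samples. A replicate block over the 6 libraries gave 1246 calls, 1188 higher and 58 lower, and 0 such pairs, and a block over all 12 libraries 2015 higher and 939 lower.

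Among the genes followed through every setting, estimates changed sign for 4, each with no call over all 12 libraries, and other uncalled genes changed sign without naive replicate 1. For Ccl2 the log2 difference of 0.17 was -0.37 and -0.35 without naive replicate 2 or 3, and over all fits without 1 library it lay between -0.78 (injury replicate 2 left out) and 4.43 (naive replicate 1 left out). For Hspa1b it lay between -7.92 and 0.66, for Myod1 between -1.27 and 1.21 and for Runx1 between -0.63 and 3.02, each highest without naive replicate 1, and Runx1 was 0.17 without injury replicate 3. Myod1 was 0.13 with the 6 libraries and a replicate block, 0.016 and 0.045 by limma on FPKM with 1 or 0.1 added, and 0.41 by limma-voom. Runx1 was 0.47 and 1.32 with a replicate block over 12 or 6 libraries, 0.36 and 1.12 by limma on FPKM, and 1.98 by limma-voom. The causes were not tested.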

Other observations

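Genes of the cytoskeleton that are low in mature fibres rose. Of 28 actin and microtubule remodelling genes, 19 rose and 1, Tuba8, fell, with a median log2 difference of 1.13 (12.1% of all genes rose). Tubb2b, a tubulin of growing cells, measured 15.8, 11.2 and 7.10 CPM in injury and 1.37, 0.853 and 1.43 CPM in naive muscle. Stmn1, which destabilises microtubules, stood at 15.1, 14.9 and 8.74 CPM in injury and 1.37, 1.12 and 1.73 CPM in naive muscle. Neither gene overlapped between the groups. Tuba8, an alpha-tubulin of striated muscle, was called in 2 of the 6 fits that left out a library.

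Of 20 polyamine and one-carbon genes, 5 rose and 2, Sms and Smox, fell, beside 12.1% and 5.41% of all genes. The decreases were not called without naive replicate 1 (edgeR adjusted p = 0.118 for Sms and 0.141 for Smox). Phgdh, the first enzyme of serine synthesis, measured 12.2, 9.03 and 7.54 CPM in injury and 1.94, 2.19 and 3.16 CPM in naive muscle, and Psat1, the next, 18.4, 15.2 and 10.4 CPM in injury and 4.13, 1.76 and 2.35 CPM in naive muscle. Mthfd1l, a mitochondrial folate enzyme, differed by 2.21 ± 0.29 on the log2 scale (SE; edgeR adjusted p = 0.000449).

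Rpl3, a ribosomal protein, measured 184, 182 and 128 CPM in injury and 87.0, 49.2 and 86.2 CPM in naive muscle, the 1 call among 26 cytosolic ribosomal protein genes. Its muscle paralog Rpl3l stood at 454, 366 and 468 CPM in injury and 619, 737 and 622 CPM in naive muscle and fell (log2 difference -0.62 ± 0.16, SE; edgeR adjusted p = 0.0181). Of 20 endoplasmic reticulum chaperone genes, 7 rose, beside 12.1% of all genes. Pdia4, a disulfide isomerase, had the smallest adjusted p of the list (log2 difference 0.98 ± 0.15, SE; edgeR adjusted p = 0.000865). The count was 2 without naive replicate 2 or injury replicate 1, 3 without naive replicate 3, 1 without injury replicate 2 and 11 without injury replicate 3.

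Of 14 imprinted growth genes, 5 rose and 1, Gnas, fell, beside 12.1% and 5.41% of all genes. Mest, a gene of embryonic mesoderm, measured 27.7, 12.8 and 12.6 CPM in injury and 5.06, 4.74 and 5.71 CPM in naive muscle. Gnas was called in 1 of the 6 fits that left out a library.

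Entpd4b had the largest decrease among the genes named for size, at 0.574, 0.498 and 0.402 CPM in injury and 2.0, 11.03 and 11.8 CPM in naive muscle (log2 difference -4.07 ± 0.57, SE; edgeR adjusted p = 0.000728). Saline libraries stood at 0.513, 0.449 and 0.853 CPM. The gene is a near-identical copy of Entpd4, so its counts are uncertain. Of the non-coding genes, Gm36161, a long intergenic RNA, measured 1.84, 3.48 and 1.98 CPM in injury and 0.375, 0.107 and 0.153 CPM in naive muscle.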
